A study of Danio rerio with 15 samples.

Results

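The comparison described here is that of the brains of adult female zebrafish (Danio rerio) kept in water with 200 µg/L dibromoacetonitrile (DBAN) with the brains of unexposed females. DBAN is a brominated by-product that can form when water containing bromide is disinfected with chlorine. The libraries were chosen by sex and dose from the labels, 3 at 200 µg/L and 3 controls, which is 6 of the 15 libraries of the series, and all genes were used. All fish of the 3 female groups, at 200 µg/L, 40 µg/L and 0 µg/L, were held under a light cycle with 14 hours of light and were sampled on day 56; no genetic alteration is named for any of them. The 3 libraries of females at 40 µg/L entered the fit to share its estimate of the spread between libraries. They also took part in the filter of genes and in the scaling. Brain tissue was used, the strain, the age and the number of fish behind a library are not given, and the hour of sampling is not given. The p-values therefore measure the spread between these libraries, which may in part be technical.

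Poly(A) RNA was measured as counts for 14971 genes, and levels are given below in CPM (counts scaled to library size) after correction of the libraries with TMM factors. The totals were 17684130, 10488947 and 11733479 counts in replicates 1, 2 and 3 at 200 µg/L, against 20511737, 18365050 and 22630829 in the controls. Every library at 200 µg/L was thus shallower than every control library, and depth and dose cannot be told apart in these 6 libraries. Replicates 1, 2 and 3 at 40 µg/L had 44971484, 33198859 and 49388334 counts, each more than any control. Where their values are given below, depth and dose cannot be told apart either. Between 42.4% and 49.6% of the values from 1 to 40 in the 6 libraries compared were multiples of 4, which points to about 4 counts for each fragment. The exposed libraries were also less alike: across genes, the correlation of log2 levels was 0.882 to 0.929 among the libraries at 200 µg/L, against 0.939 to 0.952 among the controls. Between exposed and control libraries it was 0.887 to 0.929, so the exposed libraries were no closer to each other than to the controls.

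Neurons communicate at synapses, where glutamate opens AMPA and NMDA receptors and voltage-gated sodium, calcium and potassium channels shape the response. Nearly every cell also runs a circadian clock, in which the activators Clock and Bmal1 drive the genes of their own repressors (period, cryptochrome, Rev-erb and Dec proteins) and of output factors such as Dbp. In zebrafish the clocks of many tissues respond to light directly. The study's title places DBAN in the setting of behaviour and neural pathways, and the comparison asks which brain transcripts differed after the higher of the female doses.

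The brains at 200 µg/L had lower levels of 3 genes of the circadian repressor and output arm, of an obligatory NMDA receptor subunit and of a calcium pump of the plasma membrane, and a far higher level of 1 nucleolar gene. These 6 genes and an uncharacterised gene were all that passed an adjusted p of 0.05 (edgeR quasi-likelihood test, Benjamini-Hochberg adjustment over 12601 genes). The 7 genes are 0.0556% of those tested, with 1 higher (0.00794%) and 6 lower (0.0476%). The exposed and control libraries did not overlap at any of the 7. At an adjusted p of 0.1 the count was 45 (0.357%), 13 higher (0.103%) and 32 lower (0.254%), and at an unadjusted p of 0.05, 1365 genes lay past the threshold. DESeq2 called 327 genes (2.6%), 158 higher (1.25%) and 169 lower (1.34%), with all 7 among them, and limma-voom called 5 of the 7 and no other gene. Leaving out replicate 2 or replicate 3 at 200 µg/L, or control replicate 3, left gnl2 as the only call, and leaving out another library gave 2 to 10 calls.

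ciarta encodes Ciart (Chrono), which represses transcription by the Clock and Bmal1 pair (chromosome 19, 8928434 to 8940081; positions are those of the deposited tables, for which no build is stated). It had 18.2, 29.6 and 19.8 CPM at 200 µg/L, against 118, 82.3 and 104 CPM in the controls. It fell 4.51-fold (edgeR log2 fold change -2.17 ± 0.28 SE, adjusted p = 0.0282), with every exposed library far below every control. dbpa, which encodes a clock output factor that binds D-box elements (chromosome 19, 10178189 to 10195553), had 6.99, 3.27 and 5.39 CPM at 200 µg/L, against 47.3, 27.8 and 35.9 CPM in the controls. It fell 7.06-fold (log2 -2.82 ± 0.37 SE, edgeR adjusted p = 0.0282). nr1d1 encodes the nuclear receptor Rev-erb alpha, which represses the Bmal1 genes (chromosome 3, 23488621 to 23496220). Its level was 171, 108 and 216 CPM at 200 µg/L, against 558, 612 and 531 CPM in the controls. It fell 3.44-fold (log2 -1.78 ± 0.25 SE, edgeR adjusted p = 0.033). Of the genes beside nr1d1 on the chromosome, named after their values were seen, msl1a had a log2 fold change of -0.16 and casc3 one of -0.22.

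**Figure D1:**
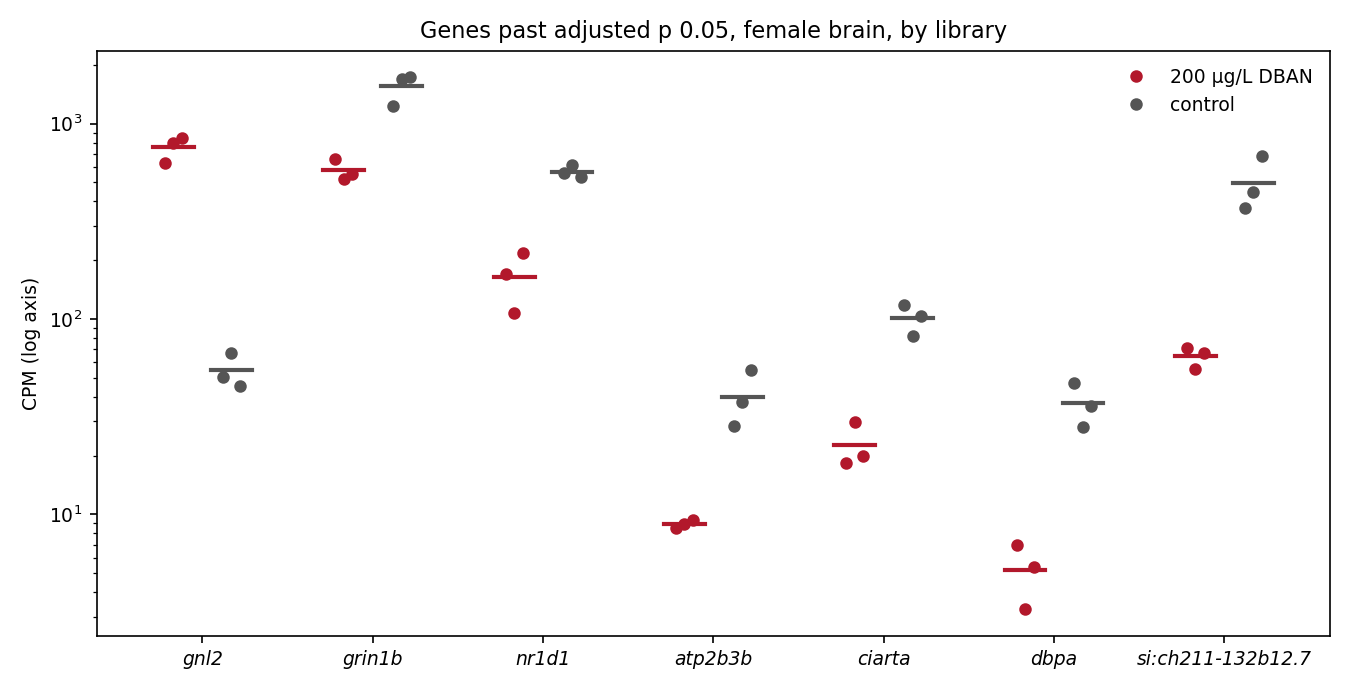
Level of the 7 genes past an adjusted p of 0.05, in CPM on a log axis, in 3 female brain libraries at 200 µg/L (red) and 3 control libraries (grey); points are libraries and bars their means. The groups do not overlap at any of the 7 genes, and gnl2 alone is higher at 200 µg/L.

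The fall of these genes was accompanied by low values over most of the repressor and output list. Of its 28 tested members 3 (nr1d1, ciarta, dbpa) passed, all lower, and none passed higher. In 19 of the 28 (67.9%), the 3 that passed included, every exposed library lay below every control library, against 10.3% of all tested genes. In 0 of the 28 every exposed library lay above, against 7.58% of all tested genes. The median log2 fold change of the list was -1.05, against 0.00 for all tested genes. The period gene per1a had 45.3, 29.1 and 36.1 CPM at 200 µg/L, against 189, 158 and 175 CPM in the controls (log2 -2.24 ± 0.37 SE, edgeR adjusted p = 0.078). Its paralogue per1b had 236, 131 and 182 CPM at 200 µg/L, against 591, 382 and 649 CPM in the controls (log2 -1.56 ± 0.25 SE, edgeR adjusted p = 0.078). Neither overlapped between the groups, though neither passed. The cryptochrome gene cry2 (58.8, 38.6 and 55.9 CPM at 200 µg/L, against 157, 108 and 147 CPM in the controls) and the Dec1 gene bhlhe40 (563, 511 and 540 CPM at 200 µg/L, against 875, 1030 and 1048 CPM in the controls) also stood apart without passing. Their edgeR adjusted p-values were 0.0882 and 0.0779. The hour of sampling is not given for either group. For the clock genes, a difference between the groups in that hour therefore cannot be told apart from one in dose.

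The activator arm gave values on the other side of 0. None of the 11 tested members of its list passed, and 8 (72.7%) had a positive log2 fold change, against 50.2% of all tested genes. The median was 0.37. The list also holds the cryptochrome gene cry4, whose own log2 fold change of 0.37 is that median. In every library 2 (18.2%) lay above the controls and 0 below, against 7.58% and 10.3% of all tested genes. arntl1a, which encodes Bmal1, had 176, 298 and 244 CPM at 200 µg/L, against 86.9, 111 and 118 CPM in the controls (log2 1.18 ± 0.22 SE, edgeR adjusted p = 0.0949). All 3 exposed libraries were above all 3 controls. rorca, which encodes a ROR receptor that competes with Rev-erb at the same sites in mammals, had 0.71, 7.67 and 0.58 CPM at 200 µg/L, against 0.454, 0.105 and 0.162 CPM in the controls. That gap rests mostly on replicate 2, the library with the high pineal markers given below. clockb, a Clock gene, overlapped between the groups at 14.9, 6.36 and 6.79 CPM at 200 µg/L, against 24.5, 10 and 12.9 CPM in the controls.

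**Figure D2:**
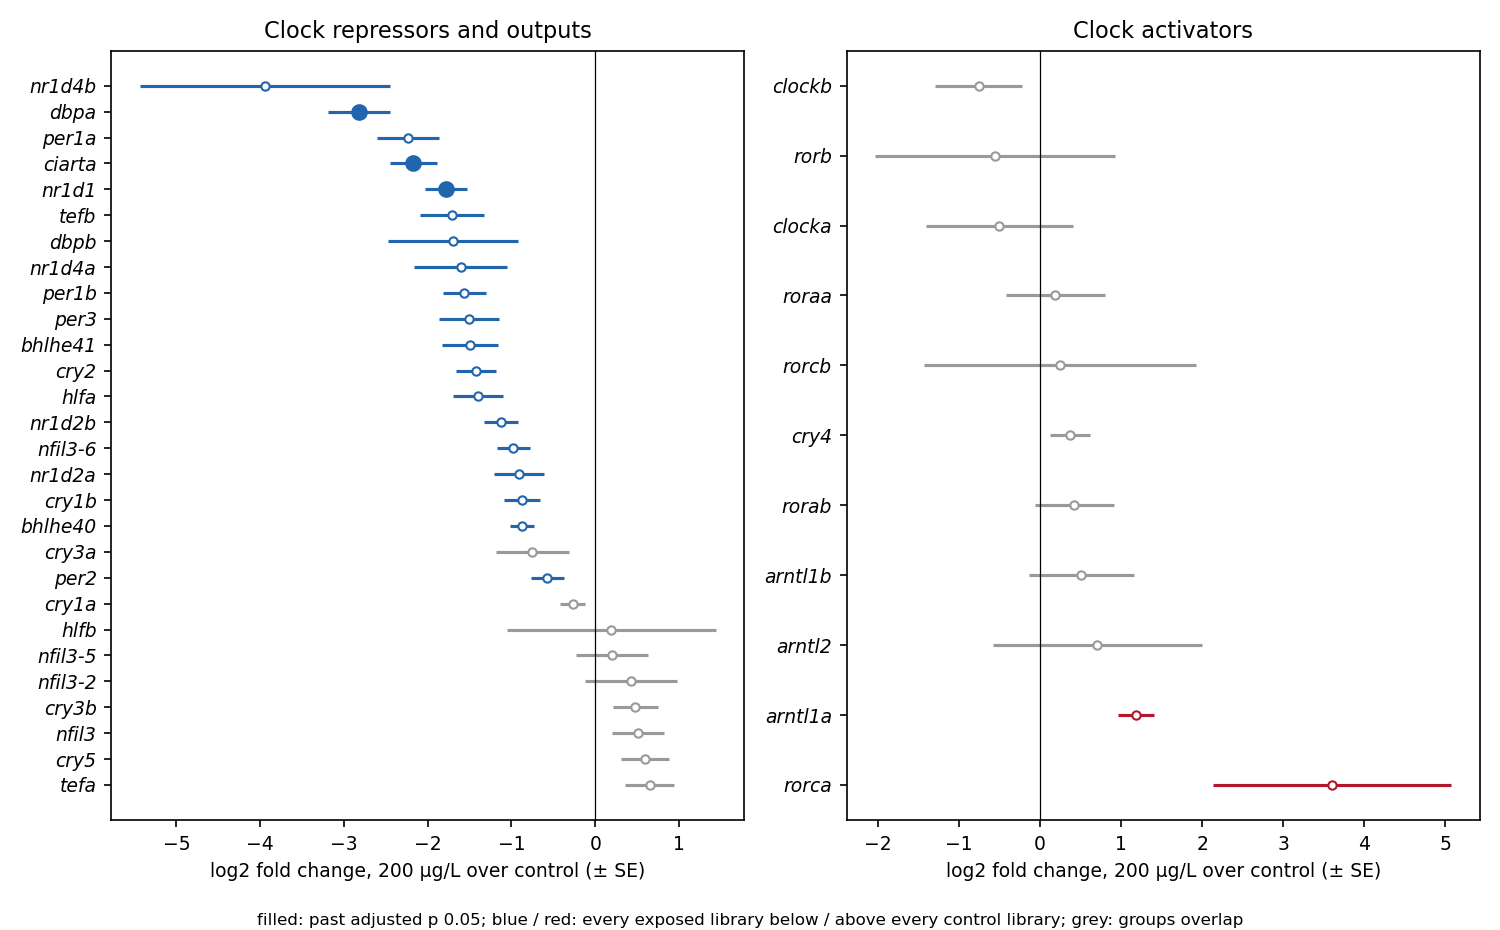
Log2 fold change (200 µg/L over control, ± SE) of each tested clock repressor or output gene (left) and clock activator gene (right). The right panel includes the cryptochrome gene cry4. Filled points passed an adjusted p of 0.05. In 19 of 28 repressor and output genes (blue) every exposed library lies below every control, and the activators arntl1a and rorca (red) lie above.

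The females at 40 µg/L, compared with the same control libraries, held 36.5, 24.1 and 24.6 CPM of ciarta and 118, 86.2 and 96.3 CPM of nr1d1. Their arntl1a level was 277, 234 and 280 CPM. On these 3 genes the libraries of the lower dose thus lay on the same side of the controls as those at 200 µg/L. dbpa was between the groups at 40 µg/L, with 14.1, 16 and 18.3 CPM.

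grin1b was the glutamate receptor gene that passed. It encodes GluN1, the subunit that every NMDA receptor contains (chromosome 5, 29597950 to 29643829). Its level was 656, 524 and 552 CPM at 200 µg/L, against 1224, 1697 and 1725 CPM in the controls. It fell 2.68-fold (log2 -1.42 ± 0.18 SE, edgeR adjusted p = 0.0282), and the highest exposed library lay well below the lowest control. The females at 40 µg/L had 1120, 944 and 1203 CPM, each below the lowest control and above every library at 200 µg/L. Its paralogue grin1a had 234, 135 and 220 CPM at 200 µg/L, against 361, 310 and 496 CPM in the controls, without overlap and without passing (log2 -0.99 ± 0.33 SE, edgeR adjusted p = 0.316).

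The list of ionotropic glutamate receptor genes, which includes grin1b and grin1a, gave values on the same side for the most part. Of the 14 AMPA, NMDA and kainate receptor genes tested 1 passed, grin1b, and 11 had a negative log2 fold change. In every library 6 (42.9%) lay below the controls, grin1b and grin1a among them, and 1 (7.14%) above. The shares of all tested genes were 10.3% and 7.58%. The median of the list was -0.56. gria2a, which encodes the AMPA receptor subunit that limits calcium entry, had 15.7, 13.5 and 13.4 CPM at 200 µg/L, against 40.6, 33.9 and 55.3 CPM in the controls (edgeR adjusted p = 0.0925). The gene is listed on an alternative contig too, so its reads can be shared between copies. gria3a, another AMPA receptor subunit, had 102, 104 and 95.4 CPM at 200 µg/L, against 114, 192 and 212 CPM in the controls. Among the 22 metabotropic receptor and glutamate transport genes none passed, 4 (18.2%) lay wholly below and 1 (4.55%) wholly above the controls, against 10.3% and 7.58% of all tested genes, and the median was -0.42. The presynaptic receptor gene grm2a had 36.9, 61 and 43 CPM at 200 µg/L, against 73.6, 96.6 and 103 CPM in the controls.

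Ion channel genes had the lowest median of the neuronal lists. Of 38 tested voltage-gated sodium, calcium and potassium channel genes none passed and 34 had a negative log2 fold change. In every library 16 (42.1%) lay below the controls and 0 above, against 10.3% and 7.58% of all tested genes. These are long genes (median 73.2 kb with introns), and 19% of the longest 10th of tested genes lay below. The next value is that of the channel list. The median was -0.74. cacna1c, which encodes the pore of an L-type calcium channel, had 63.3, 58.8 and 48.7 CPM at 200 µg/L, against 150, 136 and 252 CPM in the controls (log2 -1.65 ± 0.27 SE, edgeR adjusted p = 0.0779). The 3 exposed libraries were close together and well under the lowest control. kcnma1a, a large-conductance potassium channel gated by calcium and voltage, had 176, 107 and 188 CPM at 200 µg/L, against 304, 381 and 392 CPM in the controls. cacna1ab, the pore of a presynaptic calcium channel, had 128, 137 and 128 CPM at 200 µg/L, against 220, 257 and 401 CPM in the controls. scn1lab, a sodium channel of neurons, varied more at 200 µg/L, with 149, 42.8 and 74.4 CPM, against 280, 280 and 430 CPM in the controls. It passed where replicate 1 at 200 µg/L was left out (edgeR adjusted p = 0.043).

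atp2b3b encodes a plasma membrane calcium ATPase, which pumps calcium out of neurons (chromosome 23, 19838130 to 19933625). Its level was 8.47, 8.89 and 9.36 CPM at 200 µg/L, against 28.3, 37.4 and 54.7 CPM in the controls. It fell 4.5-fold (log2 -2.17 ± 0.30 SE, edgeR adjusted p = 0.033), and the 3 exposed libraries were almost equal. It has a second locus on an alternative contig, so that its reads can be shared between copies, and limma-voom did not call it (adjusted p = 0.201). The females at 40 µg/L had 37.9, 42.8 and 52.6 CPM of atp2b3b, within the range of the controls. On the whole list of calcium pumps, stores and sensors 1 of 39 passed, which was atp2b3b, and the median was -0.12. Of the 39, 5 (12.8%, atp2b3b included) lay wholly below and 1 (2.56%) wholly above the controls. The shares of all tested genes were 10.3% and 7.58%, so the share below was close to that of all genes. ncs1a, a neuronal calcium sensor, had 58.8, 46.4 and 60.3 CPM at 200 µg/L, against 86.4, 94.2 and 72.9 CPM in the controls.

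The postsynaptic side stood lower than the presynaptic side in these lists, though none of either passed. Of 37 postsynaptic scaffold and adhesion genes 17 (45.9%) lay below the controls in every library and 0 above, with a median log2 fold change of -0.49. Of 38 presynaptic vesicle release genes 4 (10.5%) lay below and 0 above, with a median of -0.15. Of all tested genes 10.3% lay below and 7.58% above, so the presynaptic share below was close to that of all genes. The postsynaptic genes were also longer in the genome, with a median of 99.7 kb, against 30.2 kb. Fold changes were graded with that length, as given below. The difference between the lists was not tested. nrxn3a, an adhesion molecule of the neurexin family, had 614, 748 and 643 CPM at 200 µg/L, against 935, 1223 and 1172 CPM in the controls. shank2b, a scaffold of excitatory synapses with a second locus on an alternative contig, had 41.4, 24 and 28.3 CPM at 200 µg/L, against 56.4, 71.2 and 97.7 CPM in the controls. syngap1b, a regulator of Ras beneath glutamate receptors, had 216, 214 and 198 CPM at 200 µg/L, against 268, 352 and 406 CPM in the controls. Each of these 3 stood apart between the groups. On the presynaptic side amph, which acts in the recycling of vesicles, had 332, 307 and 337 CPM at 200 µg/L, against 405, 416 and 449 CPM in the controls. unc13a, which readies vesicles for release, had 27.9, 15.8 and 14.4 CPM at 200 µg/L, against 73.7, 36 and 91.9 CPM in the controls, but it is listed on an alternative contig only.

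Inhibitory synapse genes had a median near 0. Of 21 GABA and glycine signalling genes none passed, and the median was -0.04. In every library 2 (9.52%) lay below the controls and 0 above, against 10.3% and 7.58% of all tested genes. gphna, which encodes the receptor anchor gephyrin, had 106, 118 and 126 CPM at 200 µg/L, against 139, 243 and 259 CPM in the controls. The 27 tested neuron markers of 31 listed were all detected in both groups, and their summed level was 14556 to 17254 CPM at 200 µg/L, against 15933 to 17499 CPM in the controls, with a median log2 fold change of 0.00. In bulk tissue, fewer cells of a type and less RNA per cell cannot be told apart. Of the monoamine genes, none of 48 passed, and 8 (16.7%) lay wholly below and 3 (6.25%) wholly above the controls, against 10.3% and 7.58% of all tested genes. The beta-adrenergic receptor gene adrb1 had 21.7, 8.89 and 4.14 CPM at 200 µg/L, against 66.8, 47.9 and 53.3 CPM in the controls (edgeR adjusted p = 0.23). The peptide gene vip, which in mammals couples clock neurons, had 10.7, 21.6 and 19.1 CPM at 200 µg/L, against 42, 47.7 and 40.4 CPM in the controls (edgeR adjusted p = 0.159).

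**Figure D3:**
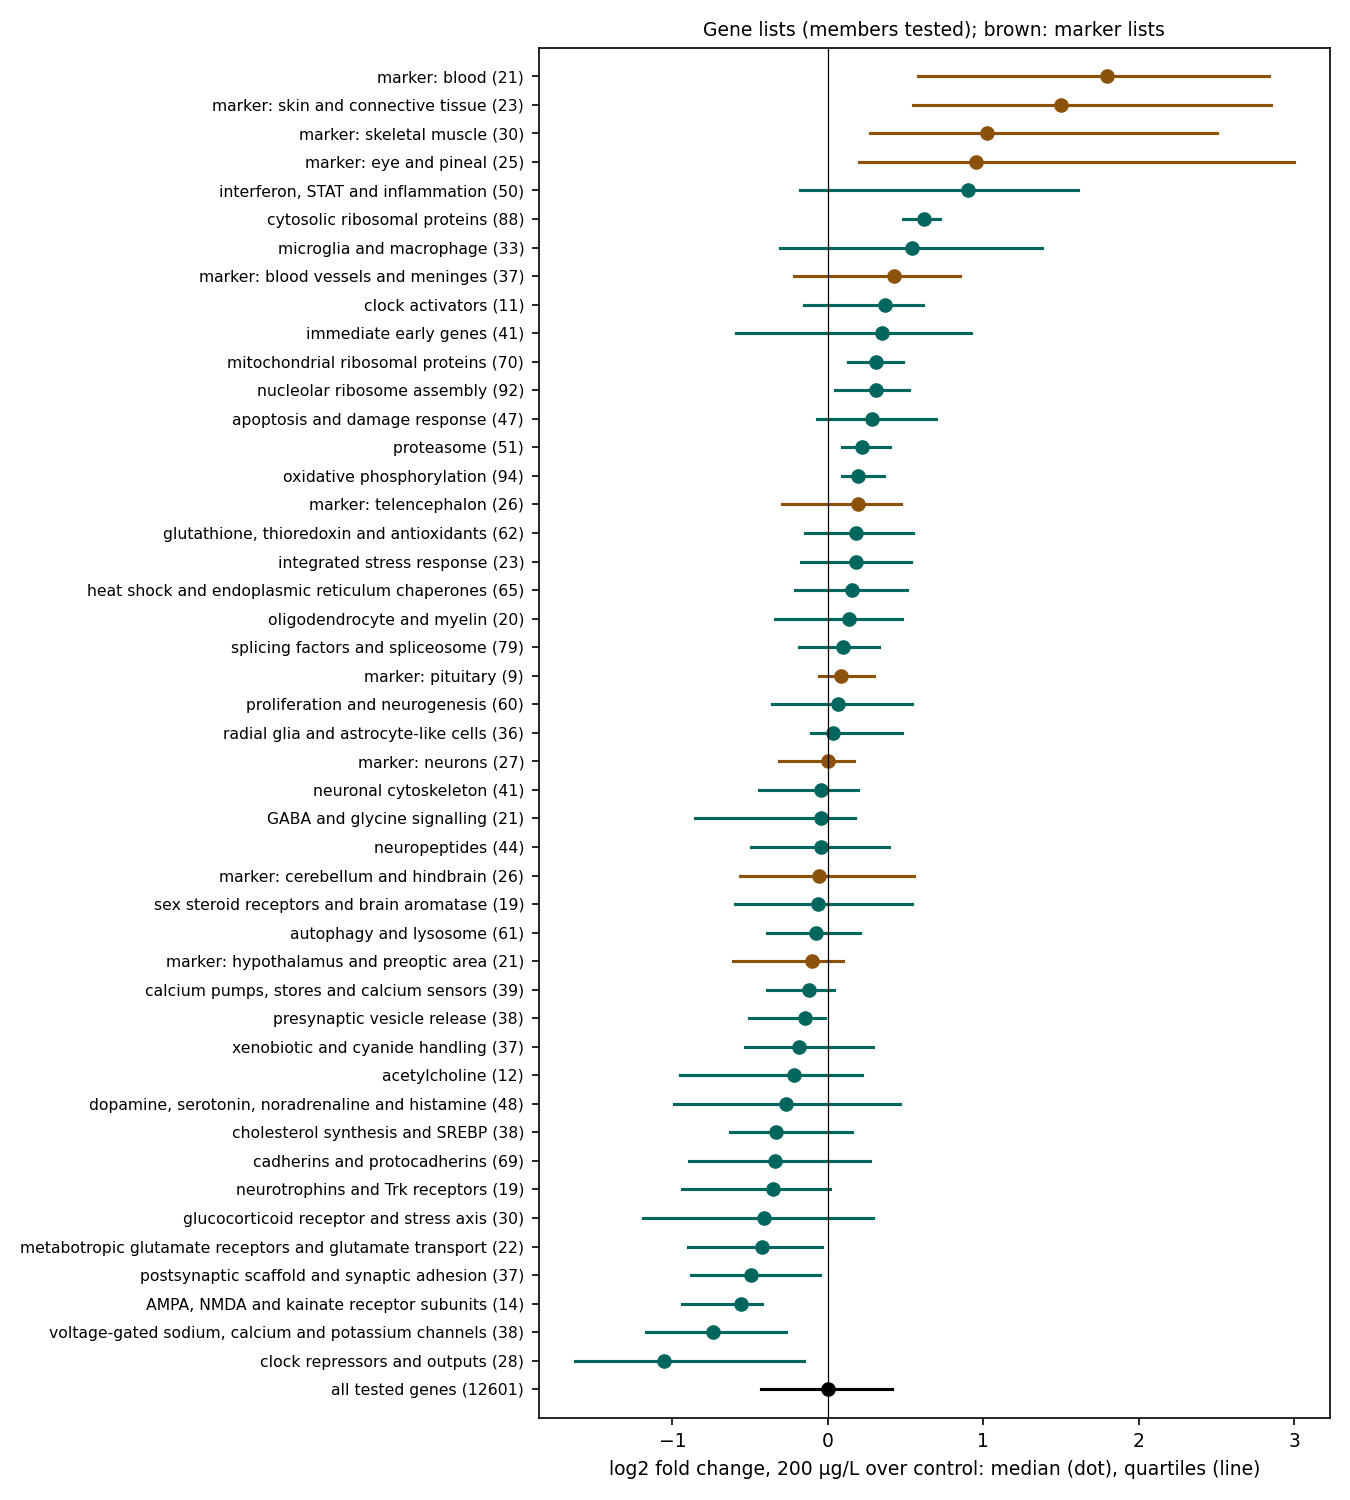
Median (dot) and quartiles (line) of the log2 fold change, 200 µg/L over control, for 46 gene lists and for all 12601 tested genes, with the number of tested members in parentheses. Clock repressors, channels and glutamate receptors have the lowest medians, and blood and skin markers (brown, set by replicate 1 at 200 µg/L) the highest.

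gnl2 was the gene that passed higher, and it encodes a nucleolar GTPase that acts in the maturation of the large ribosomal subunit in yeast (chromosome 16, 33902082 to 33925877). It had 627, 792 and 847 CPM at 200 µg/L, against 50.7, 67.3 and 45.6 CPM in the controls. It rose 13.8-fold (log2 3.79 ± 0.22 SE, edgeR adjusted p = 3.49e-05), with all 3 exposed libraries far above the highest control. The females at 40 µg/L were at the control level, with 51.5, 49.2 and 42.5 CPM. In the males of the series, scaled together with the females, it was 386 CPM in control replicate 3 and 1732 CPM in replicate 1 at 40 µg/L, against 43.3 to 61.7 CPM in the other 4 male libraries. A high level of gnl2 therefore occurred in an unexposed library too, and it was not graded with dose. dnali1, which encodes an axonemal dynein light chain, overlaps the end of gnl2 by 132 bp and had 13.1, 12 and 24.4 CPM at 200 µg/L, against 1.41, 4.04 and 1.5 CPM in the controls (log2 2.83 ± 0.62 SE, edgeR adjusted p = 0.139). Reads in that overlap cannot be told apart without strand. dnali1 was chosen after its values were seen.

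gnl2 was the exception in size among the nucleolar genes. Of 92 tested genes of ribosome assembly it alone passed, 71 had a positive log2 fold change, 17 lay above the controls in every library and 1 below, against 7.58% and 10.3% of all tested genes. The median was 0.31. nop16, which acts in large subunit assembly in yeast, had 40.1, 41.1 and 60 CPM at 200 µg/L, against 26.4, 30.6 and 14.9 CPM in the controls. rrp7a, which acts on the small subunit precursor, had 60.9, 109 and 83.4 CPM at 200 µg/L, against 47.6, 50.3 and 39.4 CPM in the controls. Both stood wholly above the controls without passing.

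Most genes of the cytosolic ribosome itself had slightly higher values at 200 µg/L. Of 88 tested ribosomal protein genes none passed and 75 had a positive log2 fold change. In every library 60 (68.2%) lay above the controls and 2 (2.27%) below, against 7.58% and 10.3% of all tested genes. The median was 0.62, with quartiles close to it. The list took 100794, 115734 and 87554 CPM in sum at 200 µg/L, against 72451, 60992 and 63162 CPM in the controls, so the groups did not overlap in the sum. rplp2, a protein of the stalk where elongation factors bind, had 1460, 1762 and 1573 CPM at 200 µg/L, against 922, 914 and 784 CPM in the controls (log2 0.87 ± 0.15 SE, edgeR adjusted p = 0.0865). rpl22, of the large subunit, had 1242, 1451 and 1210 CPM at 200 µg/L, against 759, 738 and 760 CPM in the controls (log2 0.79 ± 0.14 SE, edgeR adjusted p = 0.0949). rps8a, of the small subunit, had 2559, 3010 and 2494 CPM at 200 µg/L, against 1701, 1604 and 1552 CPM in the controls. All 3 genes were high in every exposed library. DESeq2 called 41 of the 88 higher and 1 lower. In the females at 40 µg/L, compared with the same controls, the sum was 129503, 95317 and 129596 CPM.

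For other house-keeping lists the medians were smaller and also positive. The median was 0.31 for 70 mitochondrial ribosomal protein genes, 0.20 for 94 oxidative phosphorylation genes and 0.22 for 51 proteasome genes, and none of them passed. Without replicate 2 at 200 µg/L the medians were 0.18, 0.07 and 0.08. mrpl28, a protein of the large mitochondrial ribosomal subunit, went against its list, with 0.546, 0.842 and 0.414 CPM at 200 µg/L, against 76.3, 98.4 and 63.4 CPM in the controls (log2 -7.05 ± 1.59 SE, edgeR adjusted p = 0.177). It is listed only on an alternative contig of chromosome 15. At 40 µg/L replicate 1 had 0.667 CPM and replicates 2 and 3 had 80.1 and 99.3 CPM. Without that replicate of the 40 µg/L group the adjusted p of mrpl28 was 4.2e-05, and in a fit of the 6 libraries alone it was 0.000674.

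Several inducible stress and early response genes had high values that varied among the exposed libraries. hsp70.1, hsp70.2 and hsp70.3, adjacent copies of an inducible chaperone gene whose reads may be shared, lay above the controls in every library. hsp70.1 had 45.7, 53 and 13.7 CPM at 200 µg/L, against 3.08, 7.67 and 7.25 CPM in the controls (edgeR adjusted p = 0.139). The transcription factor gene junba had 403, 152 and 147 CPM at 200 µg/L, against 40.4, 54.4 and 42.7 CPM in the controls (log2 2.35 ± 0.43 SE, edgeR adjusted p = 0.0949). btg2, a growth-limiting early response gene, had 424, 405 and 187 CPM at 200 µg/L, against 41, 87.7 and 95.3 CPM in the controls. fosab, a Fos gene of neuronal activity and stress, had 609, 518 and 177 CPM at 200 µg/L, against 48.3, 68.2 and 108 CPM in the controls. These genes did not overlap between the groups, and replicate 3 was the lowest exposed library for fosab, btg2 and hsp70.1. Of 65 chaperone genes none passed, 12 (18.5%) lay above and 5 (7.69%) below the controls in every library, against 7.58% and 10.3% of all tested genes, and the median was 0.15. Of 41 early response genes none passed, 5 (12.2%) lay above and 5 (12.2%) below, and the median was 0.35, against 0.03 without replicate 1 at 200 µg/L. The period gene per1a, given above, is among the 5 that lay below.

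fkbp5, a co-chaperone of the glucocorticoid receptor whose gene glucocorticoids induce, lay on the low side of the chaperone list. It had 67, 88.4 and 142 CPM at 200 µg/L, against 517, 474 and 486 CPM in the controls (log2 -2.31 ± 0.57 SE, edgeR adjusted p = 0.195). The controls were tight and the exposed libraries all far below. At 40 µg/L replicate 1 had 519 CPM and replicates 2 and 3 had 96 and 164 CPM, and without that replicate 1 fkbp5 passed (edgeR adjusted p = 0.042). Of the 30 genes of the glucocorticoid receptor and stress axis 1 passed, nr1d1, and the median was -0.41. Of the 30, 8 (26.7%) lay below the controls in every library and 1 (3.33%) above, against 10.3% and 7.58% of all tested genes. 3 of those 8, nr1d1, per1a and cry2, are clock genes described above. ucn3l, a urocortin peptide gene, had 40.5, 38.9 and 58.2 CPM at 200 µg/L, against 93.7, 120 and 152 CPM in the controls (edgeR adjusted p = 0.0997).

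Among the remaining metabolic and defence genes none passed. sqor, the mitochondrial enzyme that oxidises sulfide, had 73.5, 58.9 and 63.9 CPM at 200 µg/L, against 35.1, 22.7 and 36.7 CPM in the controls. gstp1, a glutathione transferase, had 331, 211 and 254 CPM at 200 µg/L, against 112, 174 and 135 CPM in the controls. Both were above the controls in every library. Of 37 xenobiotic and cyanide handling genes (median -0.18) only sqor (2.7%) lay wholly above and 5 (13.5%) lay wholly below the controls. Of 62 antioxidant genes (median 0.18) 4 (6.45%) lay above and 4 (6.45%) below. The shares of all tested genes were 7.58% above and 10.3% below. The antioxidant gene gsr lay below, with 19.9, 21.1 and 19.7 CPM at 200 µg/L, against 34.4, 38.5 and 32.4 CPM in the controls. srebf1, which encodes a master factor of lipid synthesis, had 6.99, 6.27 and 8.95 CPM at 200 µg/L, against 36.1, 18.4 and 32.4 CPM in the controls (edgeR adjusted p = 0.0982). mcl1a, a survival factor of the Bcl2 family, had 642, 468 and 324 CPM at 200 µg/L, against 168, 195 and 202 CPM in the controls.

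Adhesion and cytoskeletal genes included some of the clearest uncalled gaps. celsr2, an adhesion receptor of the cadherin family, had 112, 65.2 and 84.8 CPM at 200 µg/L, against 188, 229 and 268 CPM in the controls (log2 -1.39 ± 0.22 SE, edgeR adjusted p = 0.0779). clasp1a, which stabilises microtubule ends, had 243, 180 and 215 CPM at 200 µg/L, against 416, 441 and 513 CPM in the controls (log2 -1.10 ± 0.17 SE, edgeR adjusted p = 0.0646). Within the cadherin list, pcdh2ab9 went the other way, with 16.2, 40 and 33.5 CPM at 200 µg/L, against 6.76, 4.2 and 7.58 CPM in the controls. It may share reads with the neighbouring pcdh2ab6, which belongs to the same cluster. tek, the angiopoietin receptor gene of blood vessels, had 349, 340 and 476 CPM at 200 µg/L, against 109, 137 and 188 CPM in the controls (log2 1.43 ± 0.26 SE, edgeR adjusted p = 0.0949). Of the 37 blood vessel and meninges markers, tek among them, none passed, and 4 (10.8%) lay above and 2 (5.41%) below the controls in every library, against 7.58% and 10.3% of all tested genes. The splicing regulator gene hnrnpl had 25.4, 6.36 and 9.36 CPM at 200 µg/L, against 73.1, 137 and 316 CPM in the controls, and it too has a locus on an alternative contig.

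The remaining gene that passed, si:ch211-132b12.7 (chromosome 18, 40669698 to 40684792), has no described function in the tables used here. It had 71, 55.3 and 66.8 CPM at 200 µg/L, against 372, 444 and 680 CPM in the controls. It fell 7.75-fold (log2 -2.95 ± 0.34 SE, edgeR adjusted p = 0.021). The females at 40 µg/L lay between, with 189, 118 and 292 CPM. Of its tested neighbours, named after their values were seen, cntd2 had 6.45, 0 and 2.07 CPM at 200 µg/L, against 7.48, 7.04 and 8.02 CPM in the controls (edgeR adjusted p = 0.696), and akt2 had 59.8, 217 and 171 CPM at 200 µg/L, against 88.5, 226 and 602 CPM in the controls. cntd2 was lower in each exposed library without passing, and akt2 overlapped.

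Markers of other tissues were unevenly spread over the exposed libraries. Of 32 listed blood markers 27 were in the files and 21 were tested, with none of the tested ones at 0 in all controls. The 21 tested ones summed to 15730, 1671 and 2315 CPM in replicates 1, 2 and 3 at 200 µg/L, against 2522, 1340 and 1649 CPM in the controls. Of 40 listed skin and connective tissue markers 30 were in the files and 23 were tested, krt17 alone of these being at 0 in each control. The 23 tested ones summed to 3971, 738 and 599.6 CPM at 200 µg/L, against 701, 647 and 554 CPM in the controls. Among the 6 libraries compared, both were high in replicate 1 at 200 µg/L alone. Without it the list medians were 0.14 and -0.08, against 1.80 and 1.5 with it. In replicates 1, 2 and 3 at 40 µg/L the blood markers summed to 13144.5, 2305 and 5582 CPM. The skin and connective tissue markers summed to 2049, 612 and 873 CPM there. Of 44 listed eye and pineal markers 41 were in the files and 25 were tested, gnat1 alone of these being at 0 in each control. The 25 tested ones summed to 116, 1677 and 132 CPM at 200 µg/L, against 137, 206 and 155 CPM in the controls. Among them exorh, the pineal opsin gene, had 42.5, 913 and 64.2 CPM at 200 µg/L, against 27.2, 46.6 and 25.1 CPM in the controls. Among the 6 libraries compared, that list was high in replicate 2 at 200 µg/L alone. Its median was -0.09 without that library, against 0.95 with it. In replicates 1, 2 and 3 at 40 µg/L these markers summed to 445, 189 and 346 CPM, with exorh at 165, 33.9 and 156 CPM.

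**Figure D4:**
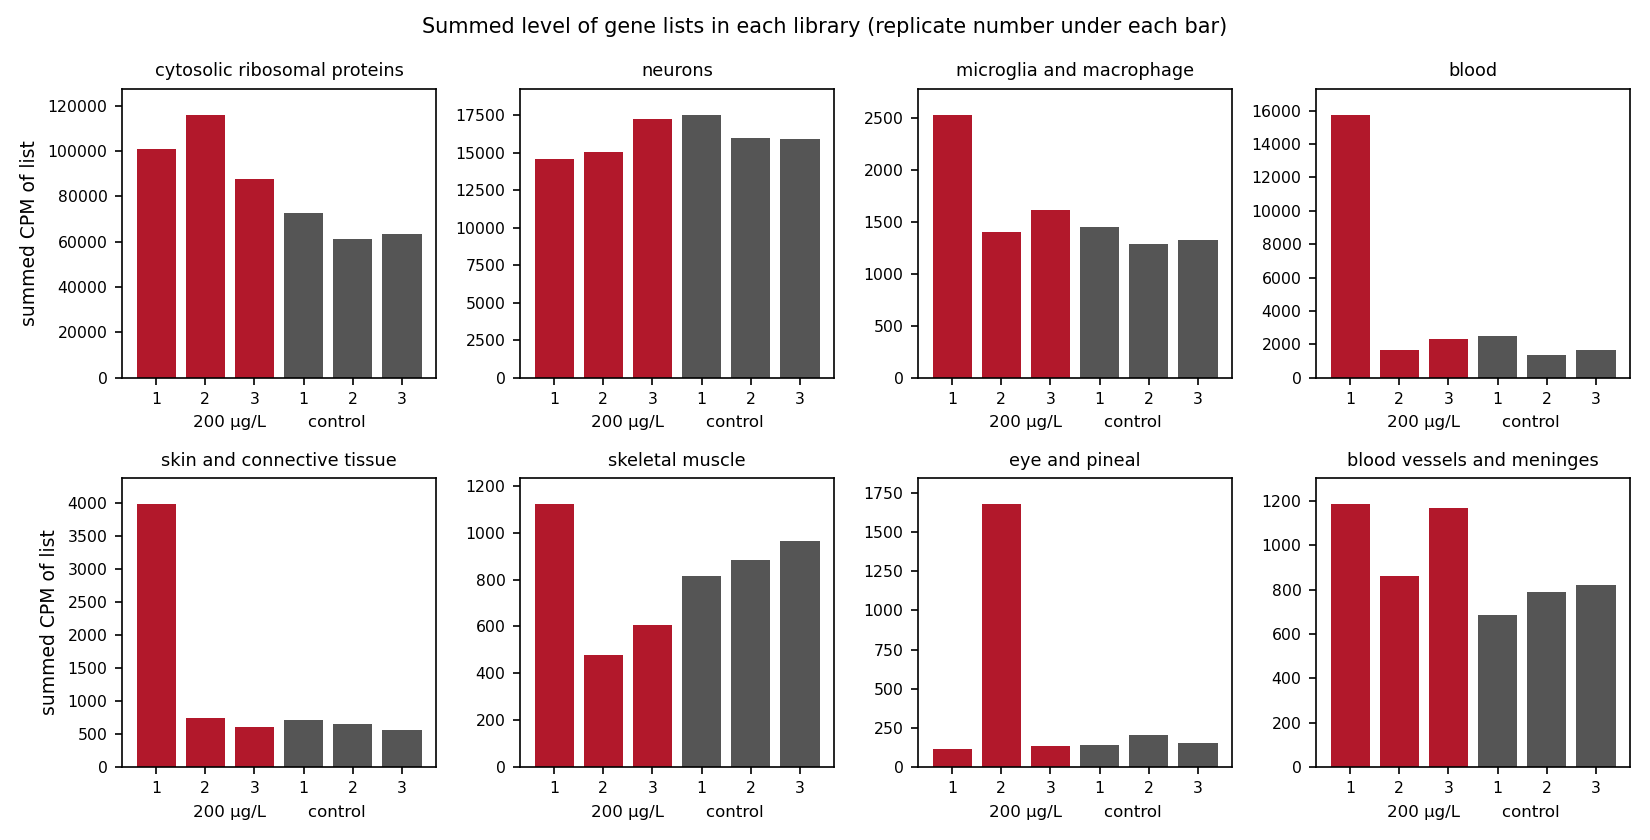
Summed CPM of 8 gene lists in each library, 200 µg/L (red) left of control (grey), with a zero-based axis of its own for each list. Ribosomal protein genes are above the controls in all 3 exposed libraries, neuron markers overlap, blood and skin markers are high in replicate 1 at 200 µg/L alone, and eye and pineal markers in replicate 2 alone.

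The summed level of the interferon and inflammation list was highest in replicate 1 at 200 µg/L, where blood, skin and muscle markers were highest too. The 30 tested muscle markers summed to 1121, 480 and 605 CPM at 200 µg/L, against 816, 884 and 966 CPM in the controls. Of 50 interferon, STAT and inflammation genes none passed, 9 (18%) lay above and 1 (2%) below the controls in every library, against 7.58% and 10.3% of all tested genes, and the median was 0.90, against 0.34 without replicate 1 at 200 µg/L. socs3a, a feedback inhibitor of cytokine signalling, had 145, 33.6 and 27.3 CPM at 200 µg/L, against 13, 16.6 and 7.62 CPM in the controls. mxa, an antiviral effector induced by interferon, had 18.2, 13.3 and 8.95 CPM at 200 µg/L, against 1.41, 3.99 and 2.71 CPM in the controls. Both were highest in replicate 1, though the other exposed libraries also exceeded the controls. The part of blood, skin or muscle in these values was not tested. Of 33 microglia and macrophage genes none passed, 6 (18.2%) lay above and 1 (3.03%) below the controls in every library, and the median was 0.54. Their median deviation from the control mean was 0.94, -0.04 and 0.01 in replicates 1, 2 and 3 at 200 µg/L. Of the 36 radial glia genes none passed, and 7 (19.4%) lay above and 2 (5.56%) below the controls. The shares of all tested genes were 7.58% above and 10.3% below. The radial glia median was 0.03, with 20 positive and 16 negative log2 fold changes. fabp7b, a fatty acid binding protein of radial glia, had 11.9, 20.3 and 14.7 CPM at 200 µg/L, against 4.72, 4.68 and 3.48 CPM in the controls. Among 20 oligodendrocyte and myelin genes none passed. In every library 1 (5%) lay above and 0 below the controls, against 7.58% and 10.3% of all tested genes.

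Some genes were at 0 in every library of a group. Of the 12601 tested genes 81 were at 0 in all 3 libraries at 200 µg/L and 29 in all 3 controls. Every library at 200 µg/L was shallower than every control, so depth and dose cannot be told apart in these counts. map9, a microtubule-associated protein gene listed on an alternative contig, had 4.42, 4.49 and 12.5 CPM at 200 µg/L, against 0 CPM in each control. slc24a2, a sodium, calcium and potassium exchanger gene of neurons, was at 0 CPM in each library at 200 µg/L, against 5.17, 1.05 and 1.66 CPM in the controls. Neither passed (edgeR adjusted p = 0.209 and 0.199). The chemokine gene ccl34b.1 was at 0 in replicate 1 and at 153 and 82.1 CPM in replicates 2 and 3 at 200 µg/L, against 0 CPM in each control, and at 40 µg/L only replicate 3 had it, at 50.9 CPM. Its presence thus varied from library to library within both doses. mhc2dab, a class II antigen-presenting gene whose paralogues may share its reads, was at 0 CPM in each library at 200 µg/L, against 12.9, 15.7 and 0 CPM in the controls.

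The fold changes were graded with the length of the gene in the genome, from the annotated start to the end with introns. In the shortest 10th of the tested genes, up to 3.58 kb, the median log2 fold change was 0.19, and in the longest 10th, above 69.2 kb, it was -0.22. Every exposed library lay below every control at 5.47% of the shortest and 19% of the longest genes, and above at 9.20% and 4.21%. Among genes at a mean of 20 CPM or more, each exposed library showed the grading when set against the control mean. The medians of the shortest 10th were 0.09, 0.29 and 0.17 in replicates 1, 2 and 3 at 200 µg/L, against 0.03, 0.08 and -0.12 in the controls. Those of the longest 10th were -0.21, -0.29 and -0.17 at 200 µg/L, against -0.04, 0.00 and 0.06 in the controls. The libraries at 40 µg/L, set against the same control mean, had 0.30, 0.18 and 0.19 in the shortest 10th and 0.14, 0.09 and 0.16 in the longest, so at the long end they lay above 0 and those at 200 µg/L below.

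**Figure D5:**
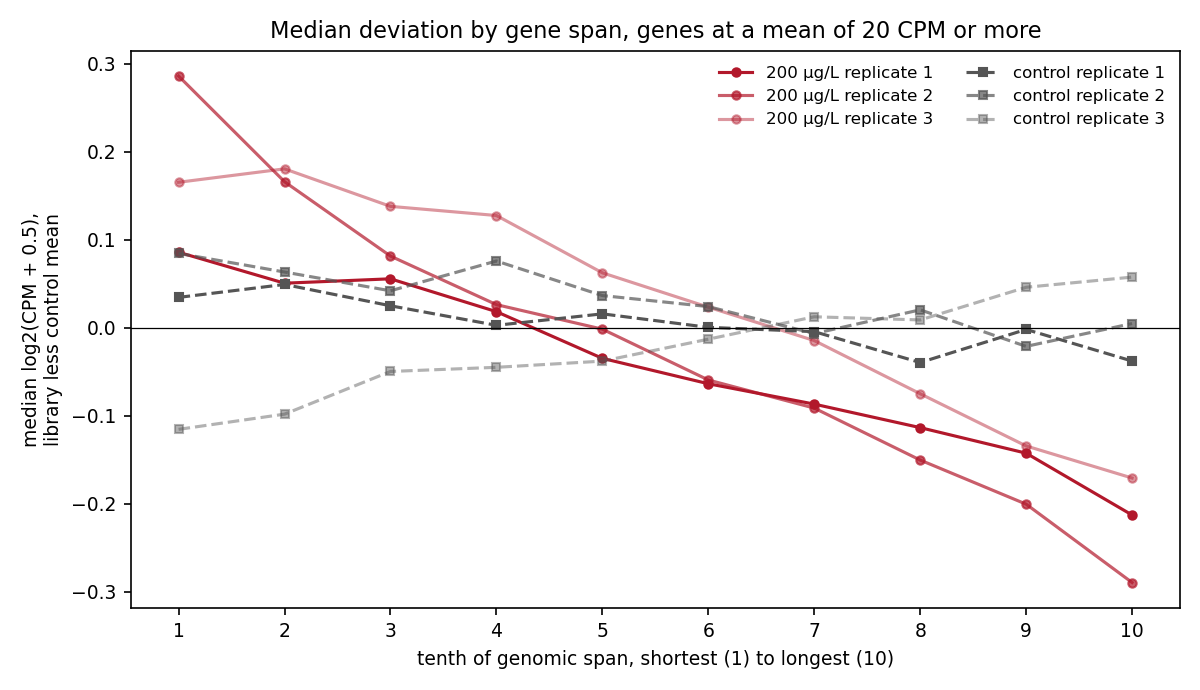
Median difference of log2(CPM + 0.5) between a library and the control mean, for genes at a mean of 20 CPM or more, by 10th of genomic span from shortest to longest. All 3 libraries at 200 µg/L (red) are higher at the short end, at 0.09, 0.29 and 0.17, than at the long end, at -0.21, -0.29 and -0.17, whereas the controls (grey, dashed) stay between -0.12 and 0.08.

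Several lists with medians away from 0 also differed from all genes in length. The median span was 114 kb for the AMPA, NMDA and kainate receptor genes, 99.7 kb for postsynaptic genes and 73.2 kb for channels, against 5.13 kb for ribosomal protein genes and 14.5 kb for all tested genes. Relative to genes of the same 10th of span, the median of the channels was -0.60, that of the glutamate receptors -0.36, that of the postsynaptic genes -0.31 and that of the ribosomal protein genes 0.49, so each was nearer to 0 than before. The clock repressors and outputs, with a median span of 12.9 kb, had -1.16 in place of -1.05. Oxidative phosphorylation genes came to 0.07. This setting was chosen after the grading had been seen. What the grading by length comes from was not tested, and RNA quality values of the libraries were not used here.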

How the data were processed

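Poly(A) RNA of brain tissue was sequenced after a TruSeq V2 preparation with oligo-dT beads, per the labels' protocols. The submitters' processing notes name StringTie, STAR, DESeq2, Picard and FastQC, without role or version; no build or annotation is given in the sources used here. The deposited values are whole-number counts per gene, not scaled to depth. The tests used edgeR 4.0.16 in R 4.3.3 on these counts: filterByExpr (12601 of 14971 genes), TMM scaling and the robust quasi-likelihood F test on the 9 female libraries, with the contrast 200 µg/L minus control and Benjamini-Hochberg adjustment over all 12601 genes. Genes were called at an adjusted p of 0.05. The standard error is the log2 fold change over the square root of F. The common biological coefficient of variation was 0.650. Groups follow the labels.

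Named genes are those called, the 15 with the smallest p on each side among genes without overlap at a mean of 5 CPM or more in a group, up to 4 members of each list by smallest p, and 5 at 0 in either group; not all of these are given in the text, and some items are not reported here. The members and lists were chosen with earlier results of these data known. Lists are described by counts and medians, without a test. Alternatives used limma 3.58.1, DESeq2 1.42.0 and the settings given in the closing part. The code was tested on simulated counts with the spread of the fit, in which genes at a mean of at least 10 CPM were changed. The test recovered 6 of 100 genes changed 2-fold and 74 of 100 changed 4-fold, and it called 4 unchanged genes. A gene that did not pass is therefore not shown to be unchanged.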

Additional observations from a re-analysis of the deposited data

How the results depend on the processing

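All 7 called genes kept their sign under the 20 alternatives, and gnl2 was called in each; si:ch211-132b12.7 was called in 18 of the 21 settings, grin1b in 14, ciarta and dbpa in 12, nr1d1 in 11 and atp2b3b in 10. DESeq2 called 327 genes, 158 higher and 169 lower, with members in 35 lists in place of 5. A fit of the 6 libraries alone called 4 genes, 3 of them lower: gnl2, si:ch211-132b12.7, mrpl28 and per1a. With the replicate number as a block 2 genes were called, 1 of them lower, with a member in 1 list. The numbers were not taken as pairs: deviations of same-numbered libraries correlated at -0.126 to 0.0768, and 3 of 6 libraries correlated best with their own number in the other group. An adjusted p of 0.1 gave 45 genes and 0.01 gave 1. Leaving out 1 library at a time gave 1 to 10 genes, 1 to 3 higher and 0 to 9 lower, in 1 to 6 lists: 1 gene, gnl2, when replicate 2 or 3 at 200 µg/L or control replicate 3 was omitted, 2 when 40 µg/L replicate 3 was, and 10 when replicate 1 at 200 µg/L was. Upper-quartile or median-of-ratios factors, omitting the filter, filters of 1 CPM in 3 libraries or a mean of 10 CPM, non-robust dispersion and counts divided by 4 each gave the same 7 genes. The median of all genes lay between -0.05 and 0.04 in these settings. The medians of the shortest and longest 10th of genes kept their signs in each setting, at 0.13 to 0.24 and -0.27 to -0.17. The lists of eye and pineal, skin, xenobiotic, oligodendrocyte, neuropeptide and sex steroid genes changed sign in at least 1 setting, as did other lists with a median near 0. Depth limits genes of low level most, the more so if each fragment gave about 4 counts, which was not tested.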
